A study of Mus musculus with 4 samples.

Results

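The genes described here are 10 genes of microglia, the resident macrophages of the retina, and of the complement system. They are Cx3cr1, Csf1r, Aif1, C1qa, C1qb, C1qc, C3, Itgam, Trem2 and Tyrobp, chosen by name, and all 10 were listed among 22558 gene symbols. Whole retinas were taken from mice of the background strain C57/BL/6J, from Fezf2 knockout (KO) animals and from littermate controls labelled as wildtype. The ages were postnatal day 14 (P14) and postnatal day 7 (P7), with 1 library for each genotype and age, 4 in all. The study asked how loss of Fezf2, a zinc-finger transcription factor, changes gene expression in the developing retina. The labels do not describe the knockout allele, or how many retinas or animals entered a library.

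Microglia colonise the developing retina, remove dying cells and surplus synapses, and then settle as ramified cells in the plexiform layers. They need signals through the receptor CSF1R to survive, and neurons keep contact with them through the membrane-bound chemokine CX3CL1 and its receptor CX3CR1. In the brain and retina C1q, the protein that starts the classical complement pathway, is made largely by microglia. C1q can tag synapses or debris, the cascade then deposits fragments of C3, and microglia bind these through complement receptor 3, of which ITGAM is a subunit. TREM2 is a lipid-sensing receptor of microglia that signals through the adaptor TYROBP, also called DAP12. AIF1, or IBA1, is the actin-binding protein used most often to stain microglia.

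Levels are FPKM, read fragments corrected for transcript length and library size, and each level came with a lower and an upper bound that cover counting error within its library. Differences are on the log2(FPKM + 1) scale, which understates the change of low genes. The ± value beside each is the half-width carried over from the bounds, which is not a spread between animals. A difference is called beyond counting error where the bounds lay apart. No group had a replicate, so a single pair of libraries has no test. The test used was limma across all 4 libraries, with additive terms for genotype and age and Benjamini-Hochberg adjustment over 12932 genes.

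Fezf2 was low in both KO libraries. It stood at 0.126 FPKM in KO against 4.02 FPKM in control retina at P14, and at 0.592 FPKM in KO against 8.32 FPKM in control retina at P7. The files hold no read counts, so depth is known only through the bounds, whose median half-width was 6.08% to 7.35% of the level for genes at 10 FPKM or more. None of the 10 members overlapped another listed locus.

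The C1q genes, which encode the A, B and C chains of the C1q molecule, had the highest levels of the 10 members in every library and fell from P7 to P14 in both genotypes. C1qa was at 6.89 FPKM in KO against 7.45 FPKM in control retina at P14 (bounds 4.87 to 7.11 and 5.20 to 8.18). Its P7 level was 16.7 FPKM in KO against 16.6 FPKM in control retina (bounds 12.4 to 16.1 and 12.4 to 15.9). Both P14 libraries lay below both P7 libraries with no overlap of bounds, whereas the genotypes overlapped at each age. C1qb was at 7.59 FPKM in KO against 7.81 FPKM in control retina at P14, and at 20.0 FPKM in KO against 18.9 FPKM in control retina at P7. C1qc was at 8.06 FPKM in KO against 6.79 FPKM in control retina at P14, and at 17.6 FPKM in KO against 16.6 FPKM in control retina at P7. As for C1qa, the ages were apart beyond counting error and the genotypes were not.

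In the KO retina the P14 level was 41.3% of the P7 level for C1qa, 38.0% for C1qb and 45.8% for C1qc. In the control retina it was 44.8% for C1qa, 41.3% for C1qb and 40.9% for C1qc. The log2 differences were -1.16 ± 0.25 in the KO and -1.06 ± 0.29 in the control retina for C1qa. For C1qb they were -1.29 ± 0.26 in the KO and -1.17 ± 0.30 in the control retina, and for C1qc -1.04 ± 0.27 in the KO and -1.18 ± 0.30 in the control retina. In the limma fit the age term was -1.11 for C1qa (SE 0.0962, adjusted p = 6.72e-07), -1.23 for C1qb (SE 0.0947, adjusted p = 2.49e-07) and -1.11 for C1qc (SE 0.0968, adjusted p = 7.37e-07). The bounds of the 3 chains overlapped in each of the 4 libraries. Tyrobp stood next below them in every library, apart from the lowest chain except in the control library at P14. Below it came Csf1r, Trem2 and Cx3cr1, then Aif1 and Itgam, and C3 last.

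**Figure D1:**
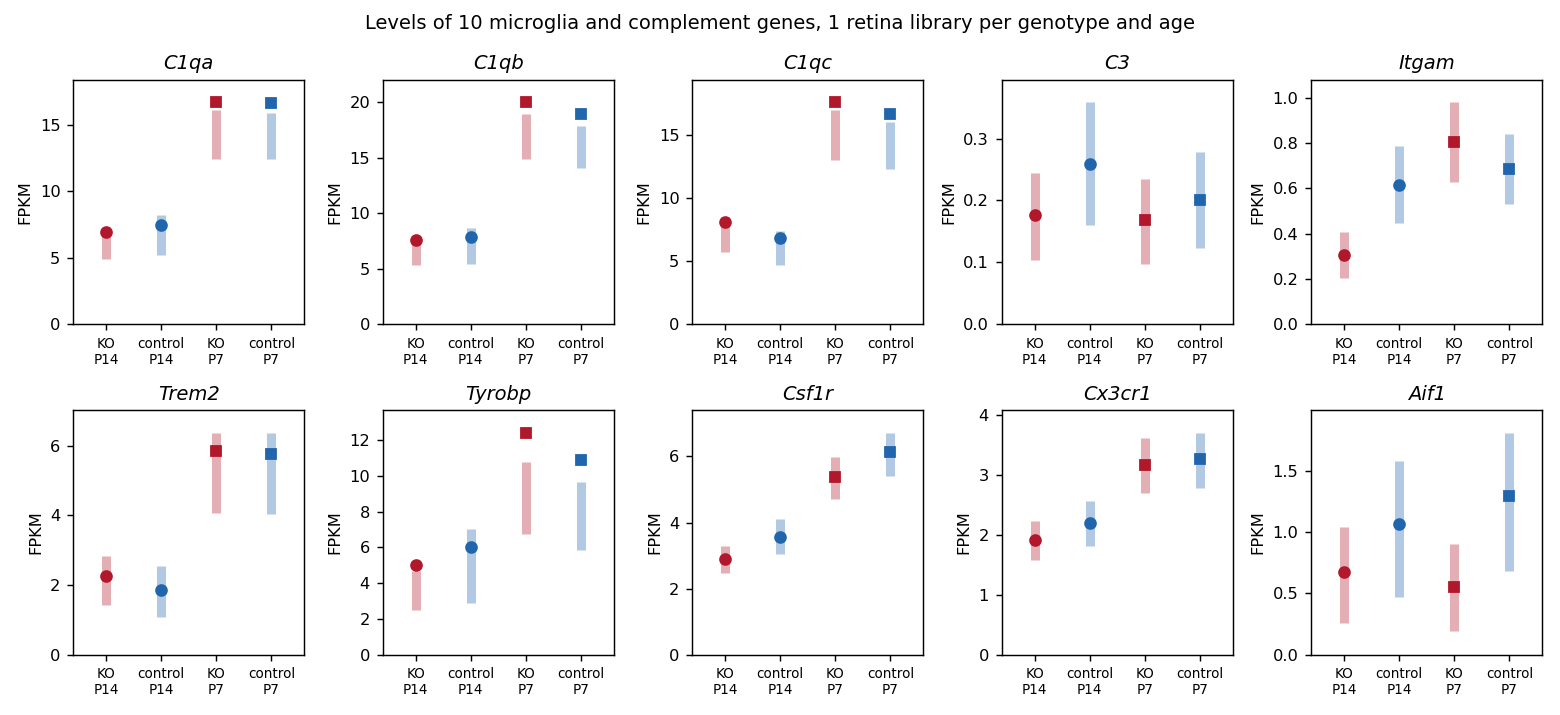
FPKM of each member (vertical axis) in the KO and control libraries at P14 and P7 (horizontal axis), 1 library per point, with the deposited bounds as pale bars. C1qa, C1qb, C1qc and Trem2 lie lower at P14 than at P7 in both genotypes, as do Csf1r and Cx3cr1. C3 and Itgam stay under 1 FPKM.

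The C1q genes lie side by side on chromosome 4, in the order C1qb, C1qc, C1qa, within 18699 bases (mm9, 136436061 to 136454759). The gap is 3624 bases between C1qb and C1qc and 3001 bases between C1qc and C1qa. Of the other members, Trem2 (mm9, 48485726 to 48491598), Aif1 (35307937 to 35312946) and C3 (57343396 to 57367559) lie on chromosome 17. Tyrobp (31198807 to 31202598) and Itgam (135206154 to 135262005) lie on chromosome 7, and Cx3cr1 (119957811 to 119977400) on chromosome 9. RefSeq promoter windows of 300 bases, 250 before and 50 after the start site in the build GRCm38.p6, were searched for 7 members: Aif1, C1qb, C1qc, C3, Cx3cr1, Itgam and Trem2. Windows of the other members are not reported here. C1qb and C1qc are shown as neighbours that fell together, and Trem2 as a gene on another chromosome that fell by a like amount. They lie on the minus strand at chr4:136886151-136886450 (C1qb) and chr4:136892865-136893164 (C1qc), and on the plus strand at chr17:48346151-48346450 (Trem2). Capitals mark GAGGAA, the core of the element bound by the myeloid transcription factor PU.1, or the same core on the other strand, TTCCTC.
C1qb: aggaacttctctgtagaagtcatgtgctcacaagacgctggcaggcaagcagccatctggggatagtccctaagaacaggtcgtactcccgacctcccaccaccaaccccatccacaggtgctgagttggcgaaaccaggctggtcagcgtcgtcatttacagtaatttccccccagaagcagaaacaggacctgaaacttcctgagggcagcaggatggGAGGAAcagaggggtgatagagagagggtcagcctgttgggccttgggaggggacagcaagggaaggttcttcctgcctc
C1qc: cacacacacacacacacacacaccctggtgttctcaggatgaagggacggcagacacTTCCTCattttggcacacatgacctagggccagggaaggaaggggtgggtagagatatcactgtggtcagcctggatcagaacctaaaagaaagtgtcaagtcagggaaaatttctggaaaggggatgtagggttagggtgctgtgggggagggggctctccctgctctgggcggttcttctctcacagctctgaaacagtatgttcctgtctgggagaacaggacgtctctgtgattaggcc
Trem2: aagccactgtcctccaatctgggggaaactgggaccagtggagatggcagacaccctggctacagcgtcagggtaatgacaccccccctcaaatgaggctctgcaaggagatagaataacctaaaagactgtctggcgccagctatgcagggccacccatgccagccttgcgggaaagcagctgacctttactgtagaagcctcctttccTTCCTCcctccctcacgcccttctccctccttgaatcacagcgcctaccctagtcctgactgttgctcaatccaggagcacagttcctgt

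Each of these 3 windows held the core once. It began 30 bases before the start site in C1qb, 193 bases before it in C1qc and 40 bases before it in Trem2. Of the 7 members whose window was searched, 5 held the core on either strand: these 3, Aif1 and Itgam. C3 and Cx3cr1 had no match in the window. It was held by 28.3% of all 32851 RefSeq windows of this length. Whether the core has a part in the change with age was not tested.

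Trem2 and Tyrobp, the receptor and its adaptor, were lower at P14 as well. Trem2 was at 2.27 FPKM in KO against 1.85 FPKM in control retina at P14 (bounds 1.43 to 2.82 and 1.08 to 2.54). In the P7 libraries it was at 5.85 FPKM in KO against 5.78 FPKM in control retina (bounds 4.08 to 6.37 and 4.05 to 6.38). The ages did not overlap in either genotype, and the P14 level was 38.7% of the P7 level in the KO and 32.0% in the control retina. The log2 differences were -1.07 ± 0.39 in the KO and -1.25 ± 0.44 in the control retina, and the limma age term was -1.16 (SE 0.112, adjusted p = 1.80e-06).

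Tyrobp was at 5.003 FPKM in KO against 6.05 FPKM in control retina at P14 (bounds 2.48 to 4.69 and 2.89 to 7.05). At P7 the level was 12.4 FPKM in KO against 10.9 FPKM in control retina (bounds 6.74 to 10.8 and 5.88 to 9.67). The bounds of the ages were apart in the KO retina and overlapped in the control retina. The log2 differences were -1.16 ± 0.34 in the KO and -0.76 ± 0.48 in the control retina, and the age term was -0.96 (SE 0.116, adjusted p = 1.19e-05). For Tyrobp in 3 of the 4 libraries, and for the C1q genes at P7, the deposited level exceeded its own upper bound, so bounds were compared only with bounds. Of the partners and signalling genes of TREM2 and TYROBP, 14 of the 16 listed were in the files, and Lat2 alone reached 1 FPKM in any library. Lat2 reached it only at P7, and the bounds of its ages were apart in the KO and overlapped in the control retina. Lat2, an adaptor of immune cells, was at 0.328 FPKM in KO against 0.564 FPKM in control retina at P14, and at 1.05 FPKM in KO against 1.25 FPKM in control retina at P7.

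The receptor genes Csf1r and Cx3cr1 fell by smaller log2 amounts. Csf1r, the receptor for CSF1 and IL-34, was at 2.89 FPKM in KO against 3.57 FPKM in control retina at P14 (bounds 2.47 to 3.28 and 3.04 to 4.09). The P7 libraries had 5.39 FPKM in KO against 6.12 FPKM in control retina (bounds 4.72 to 5.99 and 5.403 to 6.72). The ages were apart in both genotypes, with log2 differences of -0.72 ± 0.21 in the KO and -0.64 ± 0.21 in the control retina and an age term of -0.68 (SE 0.108, adjusted p = 0.000117). Cx3cr1 was at 1.91 FPKM in KO against 2.19 FPKM in control retina at P14 (bounds 1.59 to 2.24 and 1.81 to 2.57). At P7 it was at 3.17 FPKM in KO against 3.27 FPKM in control retina (bounds 2.70 to 3.63 and 2.79 to 3.71). The ages were again apart in both genotypes, at 60.4% of the P7 level in the KO and 67.1% in the control retina, with an age term of -0.47 (SE 0.112, adjusted p = 0.00243).

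Ratios between members differed between the ages. The mean of the C1q genes was 2.60 times the level of Csf1r in the KO and 2.06 times in the control library at P14. At P7 it was 3.36 times in the KO and 2.84 times in the control library. Against Cx3cr1 the ratio was 3.93 in the KO and 3.35 in the control library at P14, and 5.71 in the KO and 5.32 in the control library at P7. For both receptors the ratio was lower in each P14 library than in each P7 library. With 2 libraries per age these ratios were not tested.

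Aif1, Itgam and C3 stood near or under 1 FPKM, and none of them was lower at P14 beyond counting error in both genotypes. Aif1 was at 0.676 FPKM in KO against 1.07 FPKM in control retina at P14 (bounds 0.260 to 1.04 and 0.468 to 1.58). Its P7 level was 0.555 FPKM in KO against 1.30 FPKM in control retina (bounds 0.190 to 0.901 and 0.680 to 1.81). All 4 sets of bounds overlapped, and the age term was -0.02 (SE 0.120, adjusted p = 0.876). The log2 differences with age were 0.11 ± 0.47 in the KO and -0.15 ± 0.53 in the control retina. A change within these half-widths could go uncalled. C3, the central protein of the cascade, was at 0.177 FPKM in KO against 0.260 FPKM in control retina at P14, and at 0.168 FPKM in KO against 0.201 FPKM in control retina at P7. Its bounds overlapped between all libraries, from a lowest bound of 0.0970 to a highest of 0.359 FPKM. C3 was the lowest of the 10 members in every library.

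Itgam was at 0.305 FPKM in KO against 0.617 FPKM in control retina at P14 (bounds 0.203 to 0.406 and 0.446 to 0.789). In the P7 libraries it was at 0.806 FPKM in KO against 0.687 FPKM in control retina (bounds 0.630 to 0.982 and 0.531 to 0.841). The KO library at P14 lay below the other 3, whose bounds overlapped each other. The change with age was -0.47 ± 0.18 in the KO and -0.06 ± 0.20 in the control retina. The P14 level was 37.9% of the P7 level in the KO and 89.9% in the control retina. Itgam and C3 were under 1 FPKM in all libraries and did not enter the limma fit or the counts below.

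Over the list, 7 members reached 1 FPKM in either library of the KO age comparison, and all 7 were lower at P14 beyond counting error, against 39.4% of 13047 genes. Aif1 was under 1 FPKM in both KO libraries and did not enter this count. Its P14 level there was 122% of the P7 level, with overlapping bounds. In the control retina 8 members reached 1 FPKM and 6 were lower, against 37.7% of 13115 genes, while Tyrobp and Aif1 overlapped. Of 7 members tested in both genotypes 6 were lower in both, against 34.2% of 12909 genes. A level lower by 2-fold or more, on the log2(FPKM + 1) scale, was shown by 5 of 7 in the KO retina (C1qa, C1qb, C1qc, Trem2 and Tyrobp), against 7.89% of all genes. It was shown by 4 of 8 in the control retina (the same without Tyrobp), against 6.93%. The median log2 difference of the members was -1.07 in the KO and -0.91 in the control retina, beside -0.09 and -0.08 over all genes tested. The limma age term called 7 of 8 fitted members lower, all but Aif1, against 40.6% of 12932 genes. In whole tissue, fewer microglia and less of these RNAs per cell cannot be told apart.

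**Figure D2:**
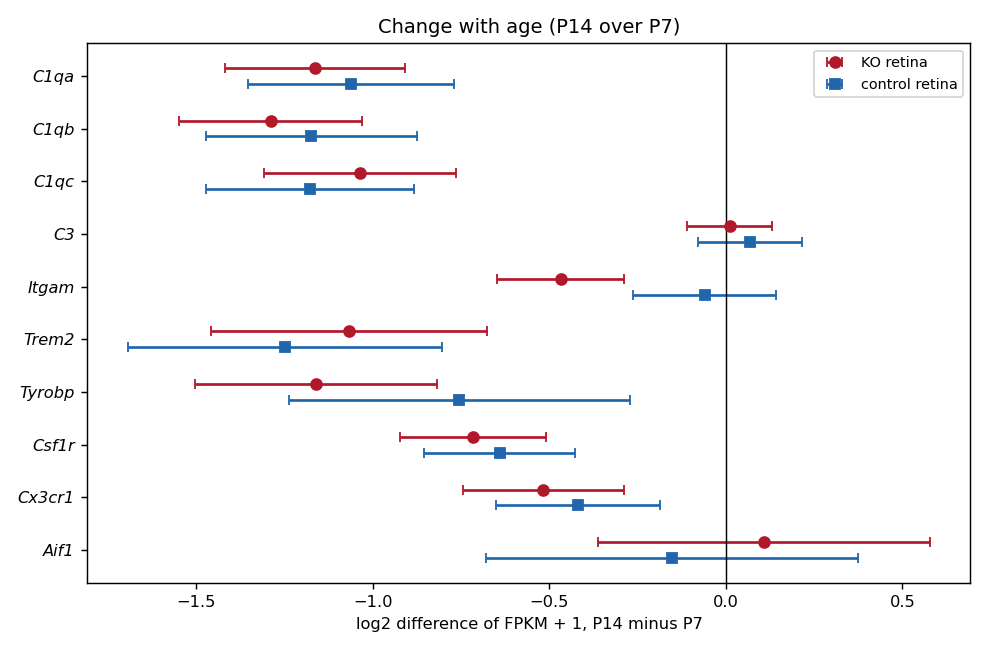
Log2 difference of FPKM + 1, P14 minus P7 (horizontal axis), for each member in the KO and the control retina. Bars are half-widths from the deposited bounds. The C1q genes, Trem2 and Tyrobp in the KO retina lie beyond -1, Csf1r and Cx3cr1 nearer to 0, and the bars of C3 and Aif1 cross 0.

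The fall of these members was set beside the levels of other cells at the same ages. The 8 rod genes summed to 4.69% of all FPKM in the KO and 4.54% in the control library at P14, and to 1.24% in each P7 library. The median of all genes, -0.09 in the KO and -0.08 in the control retina, ran from -0.17 to 0.002 over the scalings and other settings tried. Of the other retinal lists, summed levels were higher at P14 in both genotypes for the Mueller glia (8 genes), astrocyte (5), amacrine (6) and ganglion cell (9) lists and lower for the bipolar list (9). The 12 genes of endothelium and pericytes summed to 114 FPKM in KO against 110 FPKM in control retina at P14, and to 146 FPKM in KO against 145 FPKM in control retina at P7. The 15 listed genes of monocytes and border macrophages summed to 36.1 FPKM in KO against 38.2 FPKM in control retina at P14, and to 5.002 FPKM in KO against 5.62 FPKM in control retina at P7. Of the 4 that were tested, Ly6c1, Ly6c2 and Lyve1 were higher at P14 in both genotypes, against 23.9% of all genes. Ly6c1 is also expressed by endothelium. Lyve1 and Ly6c2 had age terms of 2.28 and 2.39. Of the listed genes that were not tested, Ccr2, Mrc1 and Cd163 stayed at or under 0.0700 FPKM in all libraries. Which cells held the RNAs of this list was not tested. The 13 neutrophil and lymphocyte genes summed to 0.350 FPKM in KO against 0.421 FPKM in control retina at P14, and to 0.613 FPKM in KO against 0.471 FPKM in control retina at P7, and 7 of them were listed at 0 in both P7 libraries. Lists of blood and neighbouring tissues differed between the ages unequally in the genotypes. In the KO retina, 7 of 8 tested genes of lens, vitreous and ciliary body were lower at P14, against 39.4% of all genes. So were 1 of 5 erythroid genes and 4 of 9 pigment epithelium genes. In the control retina 1 of 9 pigment epithelium genes was lower, against 37.7% of all genes, and none of the other lists. The lens, vitreous and ciliary body list summed to 9.02 FPKM at P14 against 41.8 FPKM at P7 in the KO retina. In the control retina it summed to 71.2 against 16.2 FPKM. Erythroid sums were 356 against 339 FPKM in the KO and 1180 against 291 FPKM in the control retina. Pigment epithelium sums were 150 against 121 FPKM in the KO and 205 against 104 FPKM in the control retina. The part of these shifts in the members' fall was not tested.

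Other microglia genes were lower at P14 about as often as genes in general, and the examples given for them were chosen after their values were seen. Of 27 listed, 17 were tested in both genotypes, of which 6 were lower and 2 higher at P14 in both, against 34.2% lower and 23.9% higher among all genes. Lower were Fcrls, Cd68, Laptm5, Emr1, Gpr84 and Sall1. Of these, Emr1, Gpr84 and Sall1 reached 1 FPKM only at P7, as did Fcrls in the KO retina. They entered the count only through the age at which they were higher. Cd68, a lysosomal protein gene of phagocytes, was at 1.08 FPKM in KO against 1.40 FPKM in control retina at P14, and at 5.25 FPKM in KO against 4.18 FPKM in control retina at P7. Its age term was -1.35 (adjusted p = 1.77e-06), and that of Fcrls, an Fc receptor-like gene of microglia, was -1.85 (adjusted p = 3.40e-07). Emr1 encodes the macrophage antigen F4/80.

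Higher at P14 in both genotypes were Tmem119 and Selplg, genes of mature microglia. Both reached 1 FPKM only at P14 and entered the count through that age alone. Tmem119 was at 1.09 FPKM in KO against 1.47 FPKM in control retina at P14, and at 0.332 FPKM in KO against 0.402 FPKM in control retina at P7. Its age term was 0.74 (adjusted p = 0.000114) and that of Selplg, which encodes a selectin ligand, was 0.68 (adjusted p = 0.000209). P2ry12, a purinergic receptor gene of ramified microglia, had an age term of 0.19 (adjusted p = 0.188).

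Ligands of the member receptors changed in their own ways. Il34, the CSF1R ligand made by neurons, was at 7.15 FPKM in KO against 6.88 FPKM in control retina at P14, and at 0.765 FPKM in KO against 0.810 FPKM in control retina at P7. It rose with an age term of 2.17 (adjusted p = 9.07e-09). Csf1, the other CSF1R ligand, was at 1.06 FPKM in KO against 1.14 FPKM in control retina at P14, and at 1.93 FPKM in KO against 1.75 FPKM in control retina at P7. It fell with an age term of -0.43 (adjusted p = 0.00472). Cx3cl1 was at 54.4 FPKM in KO against 53.0 FPKM in control retina at P14, and at 18.2 FPKM in KO against 18.0 FPKM in control retina at P7 (age term 1.52, adjusted p = 1.13e-08). Cx3cl1 rose while its receptor gene Cx3cr1 fell, in both genotypes. Of 9 ligands and signals tested in both genotypes, 4 were higher and 2 lower at P14 in both, against 23.9% and 34.2% of all genes.

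The rest of the complement cascade was low. All 6 genes of the classical pathway proteases and C4 stayed under 1 FPKM in every library, so 0 entered the counts. The protease genes C1ra and C1s, whose products act in complex with C1q, were at 0.281 and 0.273 FPKM in the KO and 0.345 and 0.350 FPKM in the control library at P14. At P7 they were at 0.0891 and 0.234 FPKM in the KO and 0.0620 and 0.379 FPKM in the control library. C4b was at 0.387 FPKM in KO against 0.276 FPKM in control retina at P14, and at 0.0799 FPKM in KO against 0.0687 FPKM in control retina at P7, and its near-identical copy C4a makes these values uncertain. C2 stayed between 0.292 and 0.482 FPKM. Of 15 genes of the alternative, lectin and terminal pathways, 3 were tested in both genotypes, and C8g was higher at P14 in both, 1 of 3 against 23.9% of all genes. C8g reached 1 FPKM only at P14.

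Several regulators that restrain complement were higher at P14. Of 9 tested in both genotypes 5 were higher and 1 lower in both, against 23.9% and 34.2% of all genes. Clu and Vtn are given as examples chosen after their values were seen. Clu (clusterin) had an age term of 2.61 (adjusted p = 4.19e-11) and Vtn (vitronectin) one of 4.09 (adjusted p = 2.24e-12). Cd59a, which blocks the membrane attack complex, was at 19.8 FPKM in KO against 19.0 FPKM in control retina at P14, and at 5.91 FPKM in KO against 7.87 FPKM in control retina at P7. Lower in both was Sez6, a neuronal gene with complement control domains. Clu and Vtn are expressed by retinal cells other than microglia.

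Among receptors and engulfment genes, 4 of 12 were tested. Cd93, Megf10 and Lrp1 were lower and Mertk higher at P14 in both genotypes, against 34.2% lower and 23.9% higher among all genes. Megf10, an engulfment receptor gene of glia and of some retinal interneurons, was at 3.29 FPKM in KO against 3.08 FPKM in control retina at P14, and at 12.5 FPKM in KO against 9.47 FPKM in control retina at P7. Itgb2, the partner subunit of ITGAM, was at 0.221 FPKM in KO against 0.318 FPKM in control retina at P14, and at 0.546 FPKM in KO against 0.529 FPKM in control retina at P7. C3ar1, the receptor for the C3a fragment, was at 0.0472 FPKM in KO against 0.151 FPKM in control retina at P14, and at 0.408 FPKM in KO against 0.447 FPKM in control retina at P7. Its ages were apart beyond counting error in both genotypes, below the floor of 1 FPKM.

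**Figure D3:**
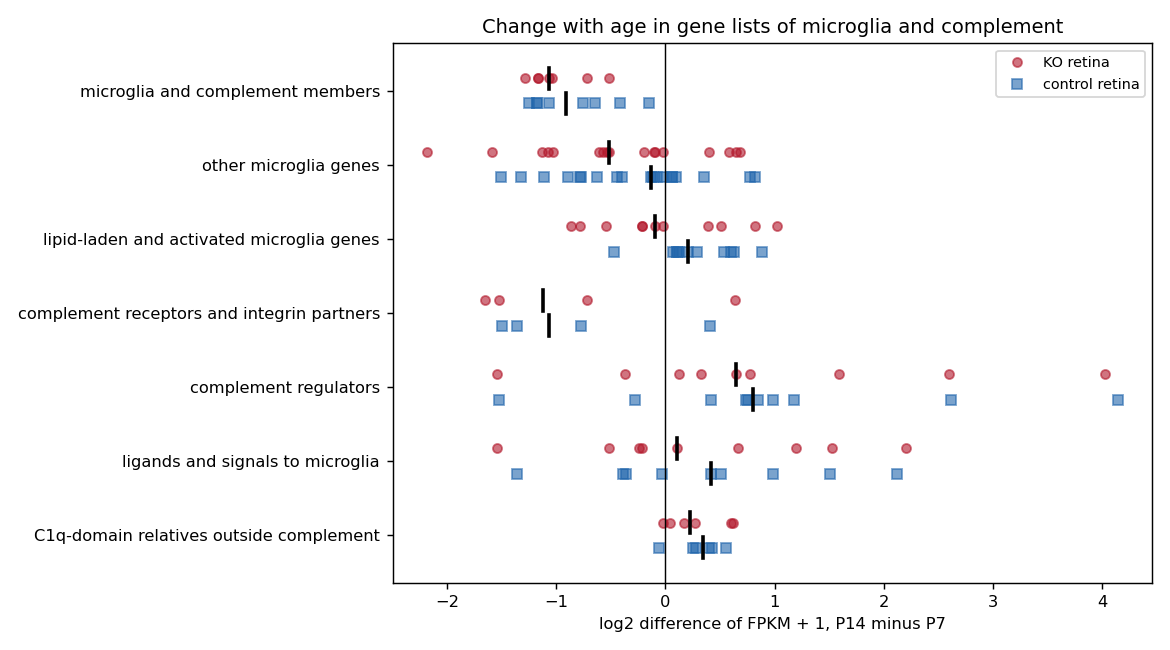
Log2 difference of FPKM + 1, P14 minus P7 (horizontal axis), for the genes tested in each list (vertical axis), in the KO and the control retina. Each point is 1 gene and each black line the median of its list. The members lie below 0, other microglia genes on both sides of it, and most complement regulators above it.

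Loss of Fezf2 went with no difference of a tested member beyond counting error at either age. At P14, 0 of 8 members were apart, against 15.7% of 12811 genes, and at P7, 0 of 8, against 13.4% of 12667 genes. The median log2 difference between KO and control retina was -0.11 at P14 and 0.01 at P7, beside 0.003 and 0.01 over all genes tested. The limma genotype term called 0 of 8 fitted members at an adjusted p below 0.05, with 1 at an unadjusted p below 0.05. The fit called 0% of 12932 genes higher and 0.24% lower, 31 genes, while with median-ratio scaling it called 35 higher and 129 lower. The half-widths of the members' differences ran from 0.22 to 0.51 at P14 and from 0.20 to 0.49 at P7. Csf1r at P14 (-0.23 ± 0.22) and Aif1 at P7 (-0.56 ± 0.49) exceeded their half-widths and still had overlapping bounds. Differences somewhat above the half-widths, and all smaller ones, could thus go uncalled at this depth.

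The C1q genes were nearly level between the genotypes. The differences at P14 were -0.10 ± 0.33 for C1qa, -0.04 ± 0.34 for C1qb and 0.22 ± 0.34 for C1qc. At P7 they were 0.005 ± 0.21 for C1qa, 0.08 ± 0.20 for C1qb and 0.08 ± 0.22 for C1qc. Summed over the chains, C1q was at 22.5 FPKM in KO against 22.0 FPKM in control retina at P14, and at 54.3 FPKM in KO against 52.1 FPKM in control retina at P7. The largest genotype term of the 8 members was that of Aif1, -0.43 (SE 0.120, unadjusted p = 0.00367, adjusted p = 0.247). The level of Aif1 in the KO retina was under that of the control at either age, by -0.30 ± 0.51 at P14 and -0.56 ± 0.49 at P7, with bounds that overlapped at both. Csf1r was also lower at both, by -0.23 ± 0.22 at P14 and -0.16 ± 0.20 at P7 (genotype term -0.19, adjusted p = 0.630).

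Itgam was apart between the genotypes at P14 alone, below the floor of 1 FPKM. Its level in the KO library was 49.4% of that in the control library at P14, a log2 difference of -0.31 ± 0.19, and 117% of it at P7, a difference of 0.10 ± 0.19. Among 5121 genes under 1 FPKM in both P14 libraries, 1.89% were lower in the KO library beyond counting error. On a TPM scale the P14 difference of Itgam was -0.54. Itgb2 had bounds that overlapped between the genotypes at both ages. Lists of blood and of tissues next to the retina moved with genotype, lower in the KO library at P14. The erythroid list summed to 356 FPKM in KO against 1180 FPKM in control retina, and all 5 tested genes were lower in the KO library. The lens, vitreous and ciliary body list summed to 9.02 FPKM in KO against 71.2 FPKM in control retina, with 7 of 7 tested lower, against 8.24% of all genes, and pigment epithelium genes to 150 FPKM in KO against 205 FPKM in control retina, with 7 of 9 lower. At P7 the erythroid list summed to 339 FPKM in KO against 291 FPKM in control retina, with 1 of 5 tested higher beyond counting error. The lens, vitreous and ciliary body list summed to 41.8 FPKM in KO against 16.2 FPKM in control retina at P7, with 6 of 8 higher. Pigment epithelium genes summed to 121 FPKM in KO against 104 FPKM in control retina at P7, with 3 of 8 higher. Over all genes tested at P7, 13.4% were apart in either direction. The sums of these lists were below the control sums at P14 and above them at P7. Itgam was below its control level at P14 only, since its P7 bounds overlapped between the genotypes. Among the members, C1qa, C1qb and Tyrobp also had a negative difference at P14 and a positive one at P7, with overlapping bounds. The remaining members had the same sign at both ages. The part of blood or of these tissues in the Itgam values was not tested.

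**Figure D4:**
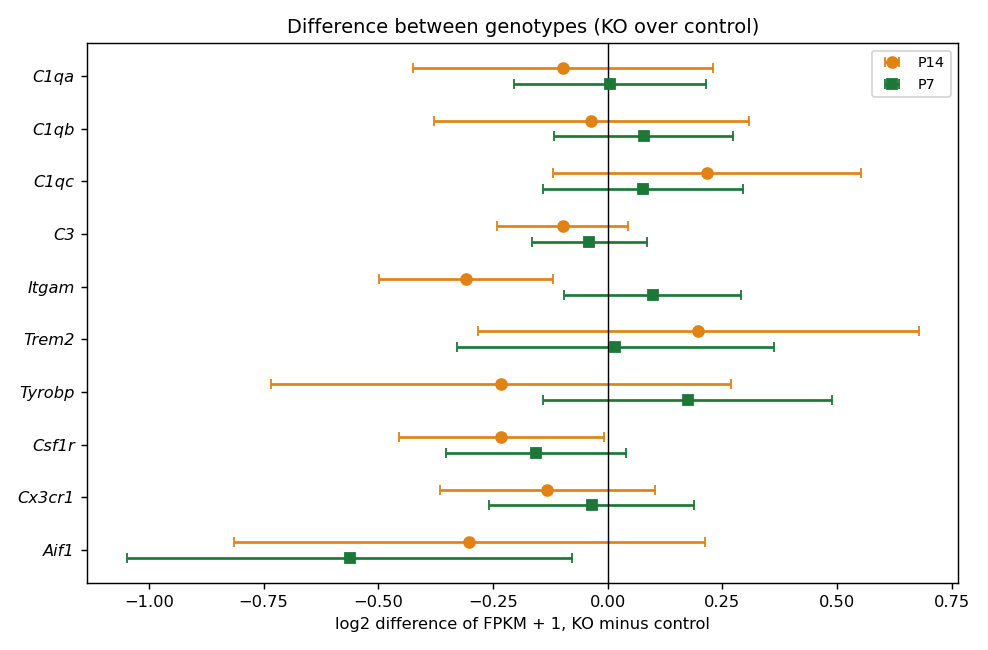
Log2 difference of FPKM + 1, KO minus control (horizontal axis), for each member at P14 and P7. Bars are half-widths from the deposited bounds. All differences lie between -0.56 and 0.22, and the bounds of the libraries were apart for Itgam at P14 alone. The bars of Csf1r at P14 and Aif1 at P7 also miss 0, although the bounds of those libraries overlap.

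Around the members, genes of the other lists differed between the genotypes beyond counting error. In the list of lipid-laden and activated microglia genes, KO retina had 2 of 11 tested genes higher and 2 lower at P14, against 15.7% of all genes apart in either direction. At P7, 7 of 11 were higher and 1 lower, against 13.4%, with a list median of 0.17 beside 0.01 over all genes tested. The 7 were Apoe, Spp1, Axl, Gpnmb, Ctsb, Ctsd and Cd63, at levels from 3.10 FPKM (Gpnmb) to 377 FPKM (Apoe) in the KO library. Of the listed genes under 1 FPKM at P7, Cst7 and Clec7a had overlapping bounds and Itgax was higher in the KO library. Which cells held the RNAs of this list was not tested. Of 17 other microglia genes tested at P7 none was apart. Cfp, which encodes properdin, the stabiliser of the alternative pathway, was at 1.13 FPKM in KO against 2.85 FPKM in control retina at P7 (bounds 0.708 to 1.55 and 2.08 to 3.43). In the P14 libraries the level was 1.06 FPKM in KO against 1.59 FPKM in control retina, with overlapping bounds, and its genotype term was -0.59 (adjusted p = 0.153). Of the regulators, Cd59a stood lower in KO retina at P7 (-0.36). Megf10 was higher in the KO library at P7 (0.36), and Lrp1 at both ages (0.15 at P14 and 0.18 at P7). Among signals at P14, Gas6 was higher (0.24) and Cd200, a neuronal brake on microglia, lower (-0.23).

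The mean profile of 7 members, all but Aif1, Itgam and C3, was -0.50 in the KO and -0.46 in the control library at P14, and 0.49 in the KO and 0.47 in the control library at P7, on a log2 scale centred for each gene. The 5 other genes nearest to it by Euclidean distance over the 4 libraries were 2010321M09Rik (0.0104), the actin gene Actb (0.0157), D630045J12Rik (0.0184), Ssh2 (0.0292) and Tspan18 (0.0299). Of 12595 other genes, 440 lay nearer to the profile than C1qa, the nearest member, and 2913 nearer than Cx3cr1, the farthest. This pattern over the 4 libraries was thus shared with many genes.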

How the data were processed

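Whole retinas of Fezf2 knockout and control mice at P14 and P7 were analysed, with 1 library per group. The deposited values are FPKM with bounds and a status. The authors used CASAVA (1.8.2), TopHat2 (2.0.8b), Cufflinks (2.1.1) and mm9, per the submitters' processing notes. Annotation and options were not given in the sources used here. Per the labels' protocols, random-primed cDNA was amplified and read as short single ends with no strand marking, and PCR duplicates were not told apart, which the bounds leave out beside biological spread.

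Values of 1 symbol were summed. The 742 small RNAs and loci under 300 bases, and failed values, were left out. Genes tested had 1 FPKM or more in either library compared. A gene could thus enter a count only through the library where it was higher, in the lists and among all genes alike. Scaling, filters and pseudocounts were varied as given in the closing section. limma 3.58.1 (R 4.3.3, Python 3.11.15) fitted log2(FPKM + 1), with a variance trend, for genes reaching 1 FPKM in 2 or more libraries. It has 1 residual degree of freedom. On simulated data for the genotype term over 12932 genes it recovered a median of 46 of 50 genes changed 1.5-fold and 50 of 50 changed 2-fold. False calls were a median of 10.6% of its calls, above the nominal share. The simulated noise was drawn from the spread of the fit itself, independently for each gene. It held no effect of library or dissection and no interaction of genotype with age. The recovery is therefore no measure of what would be found in the real libraries. The p-values rest on what the additive terms leave unexplained in these 4 libraries. That remainder is moderated by a trend over all genes, with a prior of 11 degrees of freedom. No spread between animals of a group enters them.

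The members, lists and tests were chosen with earlier results of these data known. Genes named besides the members were, from each functional list, up to 4 with genotype bounds apart and the largest differences, or the 2 highest, plus partners and ligands of members. Other named genes, including those behind small counts, were chosen after their values were seen. The 12 marker lists of other cells are given as sums and counts. Loci are in mm9, promoters in GRCm38.p6, both counted from 1. Some genes of the lists are not reported here.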

Additional observations from a re-analysis of the deposited data

Results flagged for a closer look

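Gpnmb, a gene of lipid-laden macrophages and of pigment cells, differed between the genotypes in opposite directions at the ages, beyond counting error at each. At P14 it was at 1.39 FPKM in KO against 2.58 FPKM in control retina, a log2 difference of -0.58. Its P7 level was 3.10 FPKM in KO against 1.92 FPKM in control retina, a difference of 0.49. The difference between the ages was not tested, since each rests on 1 library per genotype. The summed pigment epithelium markers moved the same way, at 150 FPKM in KO against 205 FPKM in control retina at P14, and at 121 FPKM in KO against 104 FPKM in control retina at P7. Their part in the Gpnmb values was not tested. None of the 10 members was apart in opposite directions.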

How the results depend on the processing

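The median log2 difference of the members moved by less than the median half-width of a single member's difference in each of the 4 comparisons. This held under all 6 settings tried (pseudocounts of 0.1 and 0.5 FPKM, no floor, a floor of 5 FPKM, TPM scale, median-ratio scaling). That half-width is not the counting error of the median itself. In the KO age comparison the median went from -1.07 to -1.26 with a pseudocount of 0.1 FPKM. The counts of members lower with age stayed within 1.5 times the reported ones. At P14 the count of members apart between the genotypes was 1 with no floor and 1 on a TPM scale, Itgam in each, against 0 as reported. Under a pseudocount of 0.1 FPKM the difference of Aif1 at P7 was -1.09. The limma age term called 9229 genes in the reported fit and a count within 1.5 times of that under all 8 settings. It called 7 members lower in each, except 6 of 6 fitted with a filter of 5 FPKM. The genotype term called 31 genes in the reported fit, 0 with no filter (1129 at an unadjusted p below 0.05), 77 with a filter of 5 FPKM, 20 on a TPM scale, 164 with median-ratio scaling and 17 without the variance trend. Members called by it numbered 0 in every setting. The labels carry no replicate numbers and each group has 1 library, so no pairing by replicate number was possible. Libraries are paired by age alone. With age as a term of the reported fit, its genotype term compares each KO library with the control littermate library of the same age. Leaving out a library leaves no residual degree of freedom. On a TPM scale Itgam differed by -0.54 between the genotypes at P14 and by -0.82 between the ages in the KO retina. Depth limits Aif1 most, whose half-widths were 43.7% to 64.1% of its level.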

Other observations

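Genes that microglia and other macrophages raise when laden with lipid or debris differed between the ages in both directions. Of 11 tested in both genotypes 4 were higher at P14 in both (Apoe, Cd9, Ctsb and Lgals3) and 1, the lipoprotein lipase gene Lpl, was lower, against 23.9% higher and 34.2% lower among all genes. Between the genotypes, KO retina at P7 had 7 of the 11 higher and 1 lower, against 13.4% of all genes apart in either direction. Spp1, which encodes osteopontin, was at 17.9 FPKM in KO against 16.1 FPKM in control retina at P14, and at 33.4 FPKM in KO against 14.7 FPKM in control retina at P7, where the KO library stood above the other 3. Lgals3, the galectin-3 gene, was at 4.03 FPKM in KO against 1.87 FPKM in control retina at P14, and at 1.48 FPKM in KO against 0.889 FPKM in control retina at P7. Its genotype term was 0.60 (adjusted p = 0.122). Lpl stood lower in KO retina at P14 and P7, beyond counting error (-0.41 at P14 and -0.34 at P7), with a genotype term of -0.38 (adjusted p = 0.218). Itgax, the CD11c gene, was at 0.00992 FPKM in the KO library and listed at 0 in the control library at P14, and at 0.640 FPKM in KO against 0.358 FPKM in control retina at P7. Apoe, at 335 to 666 FPKM, is also a gene of Mueller glia, and which cells held the RNAs of this list was not tested.

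Secreted relatives that share the C1q domain but are outside complement held none that was lower at P14 beyond counting error in both genotypes. Of 6 tested in both genotypes 3 were higher at P14 in both and 0 lower, against 23.9% and 34.2% of all genes. C1ql1 was at 133 FPKM in KO against 118 FPKM in control retina at P14, and at 87.8 FPKM in KO against 79.8 FPKM in control retina at P7 (age term 0.58, adjusted p = 1.25e-05). Cbln2, which encodes a synaptic organiser, had an age term of 0.34 (adjusted p = 0.00361).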
